A study of Mus musculus with 37 samples.

Results

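The alpha, beta and gamma tubulin genes described here are 10 of the 54752 genes in the deposited tables, with 25 of the 138835 transcripts. They were chosen by gene symbol, as tubulin genes, several of which have near-identical copies in the genome: the alpha tubulins *Tuba1a*, *Tuba1b*, *Tuba1c* and *Tuba4a*, the beta tubulins *Tubb2a*, *Tubb2b*, *Tubb4b*, *Tubb5* and *Tubb6*, and the gamma tubulin *Tubg1*. Alpha and beta tubulin form the dimer that builds every microtubule, including the meiotic spindle, and gamma tubulin sits in the ring complex from which new microtubules grow. Mouse oocytes build this spindle without centrioles, from many small microtubule organising centres. Tubulin messages are also known to be degraded on the ribosome when free tubulin is in excess, a feedback that reads the first residues of the new protein.

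RNA of 37 single C57BL/6 mouse oocytes was sequenced. They had an intact germinal vesicle (GV), or were in the first (MI) or the second (MII) meiotic metaphase. The study asked how the maternal transcripts change as the oocyte matures. Batch A held 6 GV and 6 MII oocytes, and batch B held 10 GV and 15 MI oocytes, so that GV was the only stage in both batches. The labels name no allele and no drug. The females were young and had been primed with pregnant mare serum gonadotropin. GV oocytes came from the ovaries of primed females, and MII oocytes were ovulated after human chorionic gonadotropin and taken from the ampulla. MI oocytes were GV oocytes matured in culture in M16 medium, so that the MI and MII groups differ in how they matured as well as in stage. Zona pellucida and polar body had been removed, and each oocyte became 1 library by Smart-seq2.

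RSEM expected counts per oocyte summed to between 2709247 and 19390137 over all genes, with a median of 11531959. HTSeq counts summed to between 2703828 and 24643912, with a median of 13258014. MI oocyte 15 was the shallowest on both. MII oocyte 1 had at least 1 count in 29816 genes, against a median of 20599 in its group. All 12 oocyte markers were above 1 CPM, a count scaled to library size with TMM factors, in each of the 4 groups. *Gdf9* led them, and their summed CPM had a median of 10151 in GV and 7057 in MII oocytes of batch A, and of 5408 in GV and 4864 in MI oocytes of batch B. The 14 granulosa or cumulus markers summed to a median of 34.1 CPM in GV and 30.8 CPM in MII oocytes of batch A, led by *Cyp19a1* in both. They summed to 41.1 CPM in GV oocytes of batch B, led by *Cyp19a1*, and to 41.7 CPM in MI oocytes, led by *Nr5a2*. *Amhr2* and *Ptx3* were at 0 in GV oocytes of both batches and in MI oocytes, and *Amh* and *Foxl2* in both groups of batch B. The 6 blood or immune markers had a median sum of 0.592 CPM in GV and 1.13 CPM in MII oocytes of batch A, led by *Cd68* in both, with 12.8 CPM in MII oocyte 1. Their median sum was 5.90 CPM in GV and 3.60 CPM in MI oocytes of batch B, led by *Hbb-bs* in both.

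On the mm10 genome, 3 of the alpha genes are neighbours on chromosome 15. *Tuba1b* (ENSMUSG00000023004.8, chr15:98931425-98934565, minus strand) encodes an alpha tubulin made in most cells. *Tuba1a* (ENSMUSG00000072235.6, chr15:98949837-98953703, minus strand) encodes the main alpha tubulin of developing neurons. *Tuba1c* (ENSMUSG00000043091.9, chr15:99029891-99038110, plus strand) encodes a close relative of both. *Tuba4a* (ENSMUSG00000026202.13, chr1:75214228-75219865, minus strand) encodes the alpha tubulin whose message does not carry the terminal tyrosine. *Tubb2a* (ENSMUSG00000058672.7, chr13:34074274-34078007, minus strand) and *Tubb2b* (ENSMUSG00000045136.6, chr13:34126748-34130466, minus strand) are neighbours that encode the class II beta tubulins. *Tubb4b* (ENSMUSG00000036752.4, chr2:25222160-25224702, minus strand) encodes a widely made class IV beta tubulin that is also found in cilia. *Tubb5* (ENSMUSG00000001525.10, chr17:35833921-35838306, minus strand) encodes the class I beta tubulin of most dividing cells. *Tubg1* (ENSMUSG00000035198.9, chr11:101119938-101126419, plus strand) encodes the gamma tubulin of most tissues.

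The coding sequences of *Tuba1a* and *Tuba1b* were 98.3% identical in the GENCODE M21 transcripts, and those of *Tuba1b* and *Tuba1c* 97.9%. *Tubb2a* and *Tubb2b* shared 96.5% of their coding bases, while *Tubb5* and *Tubb4b* shared 82.2%. The opening codons are shown because those of alpha and beta tubulin encode the residues that the feedback on tubulin messages reads. They also show how alike the copies are. Each run gives the first 30 coding bases, 5′ to 3′ on the coding strand, with the first 12 in capitals. *Tubb6* is not shown. In the alpha genes the first 3 bases lie in exon 1 and the other 27 in exon 2, whose position is given, and in the rest all 30 lie in exon 1.
*Tuba1a* (chr15:98951665-98951691, minus strand): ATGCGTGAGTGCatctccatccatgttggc
*Tuba1b* (chr15:98933169-98933195, minus strand): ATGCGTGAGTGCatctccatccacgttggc
*Tuba1c* (chr15:99034094-99034120, plus strand): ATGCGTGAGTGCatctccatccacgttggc
*Tuba4a* (chr1:75217408-75217434, minus strand): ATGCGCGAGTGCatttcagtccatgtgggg
*Tubb2a* (chr13:34077900-34077929, minus strand): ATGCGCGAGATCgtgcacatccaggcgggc
*Tubb2b* (chr13:34130204-34130233, minus strand): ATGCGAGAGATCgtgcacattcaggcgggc
*Tubb4b* (chr2:25224561-25224590, minus strand): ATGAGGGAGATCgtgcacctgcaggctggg
*Tubb5* (chr17:35838024-35838053, minus strand): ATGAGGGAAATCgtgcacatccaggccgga
*Tubg1* (chr11:101120194-101120223, plus strand): ATGCCGAGAGAAatcatcaccctacagttg
*Tuba1b* and *Tuba1c* had 0 differences over these 30 bases and *Tuba1a* and *Tuba1b* had 1, whereas *Tuba1b* and *Tubg1* had 19.

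Levels of different genes are compared in TPM, which divides counts by transcript length and scales each oocyte to the same sum. Among the 10 genes, *Tubb4b* had the highest mean level in each of the 4 groups, at 1056 ± 147 TPM (SD, n = 6) in GV and 670 ± 72.7 TPM (SD, n = 6) in MII oocytes of batch A. *Tubb2a* came next, at 510 ± 56.3 TPM (SD, n = 6) in GV oocytes of batch A, and *Tubb6* followed at 281 ± 46.5 TPM (SD, n = 6). *Tuba1c* was the highest of the alpha members there, at 190 ± 93.9 TPM (SD, n = 6), and *Tuba4a* was within 1 SD of it at 148 ± 39.1 TPM (SD, n = 6). *Tubb5*, at 89.2 ± 10.8 TPM (SD, n = 6), and *Tuba1b*, at 86.4 ± 32.2 TPM (SD, n = 6), did not differ beyond their spread. *Tubb2b* stood at 61.7 ± 11.1 TPM and *Tubg1* at 26.4 ± 6.07 TPM (SD, n = 6 for both). *Tuba1a* was barely detected, at 1.71 ± 1.42 TPM (SD, n = 6) in GV oocytes of batch A. Its RSEM count ran from 0 to 59 over the 37 oocytes of the 4 groups.

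By the mean of each group, the most abundant alpha tubulin message of these oocytes belonged to none of the 10 genes. *Tuba3a*, an alpha tubulin otherwise known from testis, had a mean share of 41.2% of the summed alpha tubulin TPM in GV and of 55.2% in MII oocytes of batch A. In batch B its share was 69.5% in GV and 76.0% in MI oocytes. In single GV oocytes of batch A the share of *Tuba3a* ran from 30.9% to 55.6% and that of *Tuba1c* from 12.1% to 35.1%. Among the members, *Tuba1c* had a mean share of 21.2% in GV and 18.02% in MII oocytes of batch A, and of 6.30% in GV and 4.60% in MI oocytes of batch B. *Tuba1b* held 9.65% in GV and 4.51% in MII oocytes of batch A. *Tuba4a* held 16.8% and 11.2%. The alpha sum was 889 ± 99.2 TPM (SD, n = 6) in GV and 398 ± 59.6 TPM (SD, n = 6) in MII oocytes of batch A. The beta sum was 2214 ± 249 TPM (SD, n = 6) in GV and 1592 ± 71.2 TPM (SD, n = 6) in MII oocytes. TPM carry no TMM factors, so a change in TPM between stages is not on the scale of the fold changes below. *Tubb2a*, for example, had a mean of 510 TPM in GV and 431 TPM in MII oocytes of batch A but did not pass in the fit. *Tubb4b* made up 47.6% of the beta TPM in GV and 42.1% in MII oocytes of batch A, and *Tubb2a* 23.1% and 27.0%. The ratio of the alpha to the beta sum ran from 0.351 to 0.447 in GV and from 0.221 to 0.296 in MII oocytes of batch A, without overlap. In batch B it ran from 0.284 to 0.527 in GV and from 0.342 to 0.942 in MI oocytes, with overlap and with the higher mean in MI oocytes. These shares, sums and ratios are descriptions and were not tested.

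**Figure D1:**
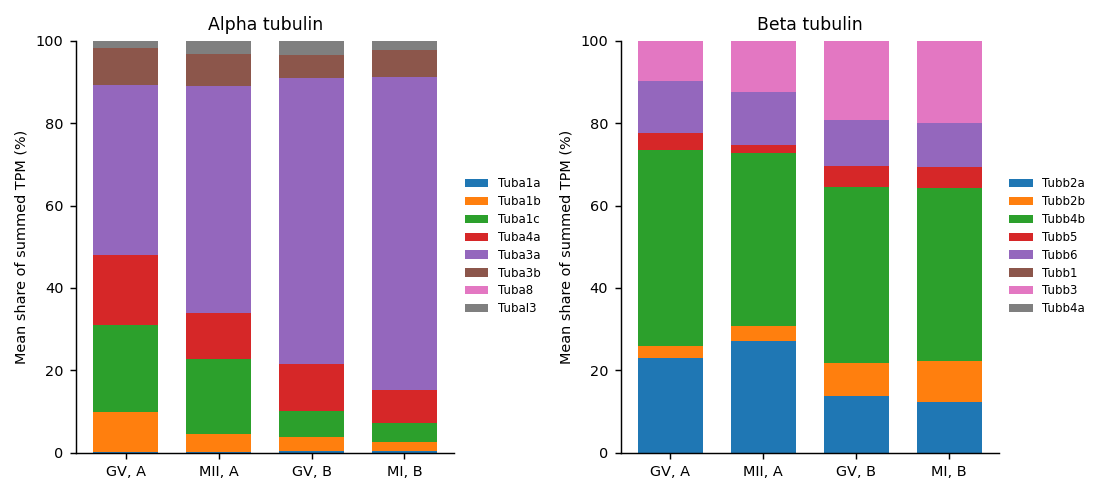
Mean share (%) of each gene in the summed TPM of the alpha tubulins (left) and of the beta tubulins (right), stacked from 0 for GV and MII oocytes of batch A (n = 6 each) and for GV (n = 10) and MI (n = 15) oocytes of batch B. *Tuba3a* is the largest alpha block in each group and *Tubb4b* the largest beta block.

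The comparison of GV with MII oocytes in batch A shows which tubulin messages had lower relative counts in ovulated eggs. Of the 10 genes, 9 passed the filter on low counts, all but *Tuba1a*, and edgeR called 4, that is, found them more than 2-fold apart at an adjusted p below 0.05. All 4 were lower in MII oocytes: the alpha genes *Tuba1b*, *Tuba1c* and *Tuba4a* and the beta gene *Tubb5*. Over all 12929 genes tested, 8.47% were called, and 6.32% were called as lower. The labels name no animal, so the oocyte was the unit of the test, and each p-value measures only the spread between oocytes, some of which may come from 1 female.

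*Tuba1b* ranged from 39.7 to 88.1 CPM with a median of 50.3 CPM in GV oocytes, and from 10.2 to 22.6 CPM with a median of 14.5 CPM in MII oocytes. Each of the 6 MII oocytes lay below each GV oocyte. How many of all genes tested had groups apart in this way was not computed, here or for the genes that follow. Its level was 4.01-fold lower, a log2 fold change of -2.002 (SE 0.22, adjusted p = 2.08e-05), the largest fall among the 9. *Tubb5* ranged from 80.2 to 101 CPM with a median of 92.8 CPM in GV oocytes, and from 31.0 to 49.2 CPM with a median of 40.8 CPM in MII oocytes. The groups were well apart, and the GV oocytes lay close together. *Tubb5* was 2.40-fold lower in MII oocytes, a log2 fold change of -1.26 (SE 0.14, adjusted p = 2.08e-05). *Tuba4a* ranged from 67.6 to 147 CPM with a median of 100.3 CPM in GV oocytes, and from 34.7 to 62.5 CPM with a median of 41.6 CPM in MII oocytes. Its groups did not overlap, although the highest MII and the lowest GV oocyte lay close to each other. *Tuba4a* was 2.43-fold lower, a log2 fold change of -1.28 (SE 0.20, adjusted p = 0.00043).

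*Tuba1c* ranged from 92.6 to 221 CPM with a median of 118 CPM in GV oocytes, and from 52.5 to 87.1 CPM with a median of 64.5 CPM in MII oocytes. GV oocytes 2 and 5 were far above the other GV oocytes, and the groups did not overlap. *Tuba1c* was 2.20-fold lower in MII oocytes, a log2 fold change of -1.14 (SE 0.24, adjusted p = 0.00354). Without GV oocyte 2 its log2 fold change was -0.99, and without GV oocyte 5 it was -0.96, both short of the fold threshold, with an adjusted p of at most 0.0106 over the 12 fits that each left out 1 oocyte.

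*Tubb4b*, the most abundant member, ranged from 522 to 820 CPM with a median of 657 CPM in GV oocytes, and from 450 to 560 CPM with a median of 517 CPM in MII oocytes. The groups overlapped: 3 MII oocytes lay below each GV oocyte, and the other 3 lay among them. Its log2 fold change was -0.43 (SE 0.13, adjusted p = 0.0322), past the adjusted p alone, which 20.6% of all genes tested passed. The adjusted p missed 0.05 in 4 of the 8 alternatives, between 0.000182 and 0.116 over them (adjusted p between 0.0179 and 0.0799 over the 12 fits without 1 oocyte). It also missed without GV oocyte 3 or 4, or MII oocyte 1, 2, 4 or 5. The alternatives that missed were HTSeq counts, no filter, the replicate block and the model of all oocytes.

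The other 4 members tested did not pass. *Tubb2a* ranged from 253 to 376 CPM in GV and from 291 to 372 CPM in MII oocytes, with a log2 fold change of -0.01 (SE 0.13, adjusted p = 0.972). *Tubb2b*, from 37.2 to 64.9 CPM in GV and from 49.9 to 67.7 CPM in MII oocytes, had a log2 fold change of 0.13 (SE 0.14, adjusted p = 0.542). *Tubb6* (ENSMUSG00000001473.6, chr18:67390717-67402749, plus strand), which encodes the divergent class V beta tubulin and ranged from 135 to 222 CPM in GV and from 137 to 220 CPM in MII oocytes, had a log2 fold change of -0.22 (SE 0.16, adjusted p = 0.345). *Tubg1* ranged from 12.6 to 23.1 CPM in GV and from 16.6 to 30.8 CPM in MII oocytes. In 3 of the 6 MII oocytes it lay above each GV oocyte, with a log2 fold change of 0.38 (SE 0.20, adjusted p = 0.190). *Tuba1a*, below the filter, had a median count of 16.5 in GV and of 4.5 in MII oocytes.

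These are changes relative to the rest of the transcriptome. They are also changes in messages captured by their poly(A) tails, as Smart-seq2 does. The paper states that cytoplasmic polyadenylation would take place in maturing oocytes. Tail length was not measured, so a change in counts need not be a change in the number of messages. With the ERCC spike-ins, synthetic RNAs found in batch A at 44665 to 143061 counts per oocyte, as the library size, the median log2 fold change of all genes moved from 0.01 to -0.72 and 30.3% of genes were called. *Tubb4b* was then called as well, at -1.13 (adjusted p = 0.000182), and the 5 called members were all lower in MII oocytes. On this scale *Tubb2a* (-0.71) and *Tubb6* (-0.95) passed the adjusted p alone, while *Tubb2b* (-0.61) and *Tubg1* (-0.31) did not pass and took the opposite sign to that under TMM. The amounts of spike-in added are not stated in the labels.

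**Figure D2:**
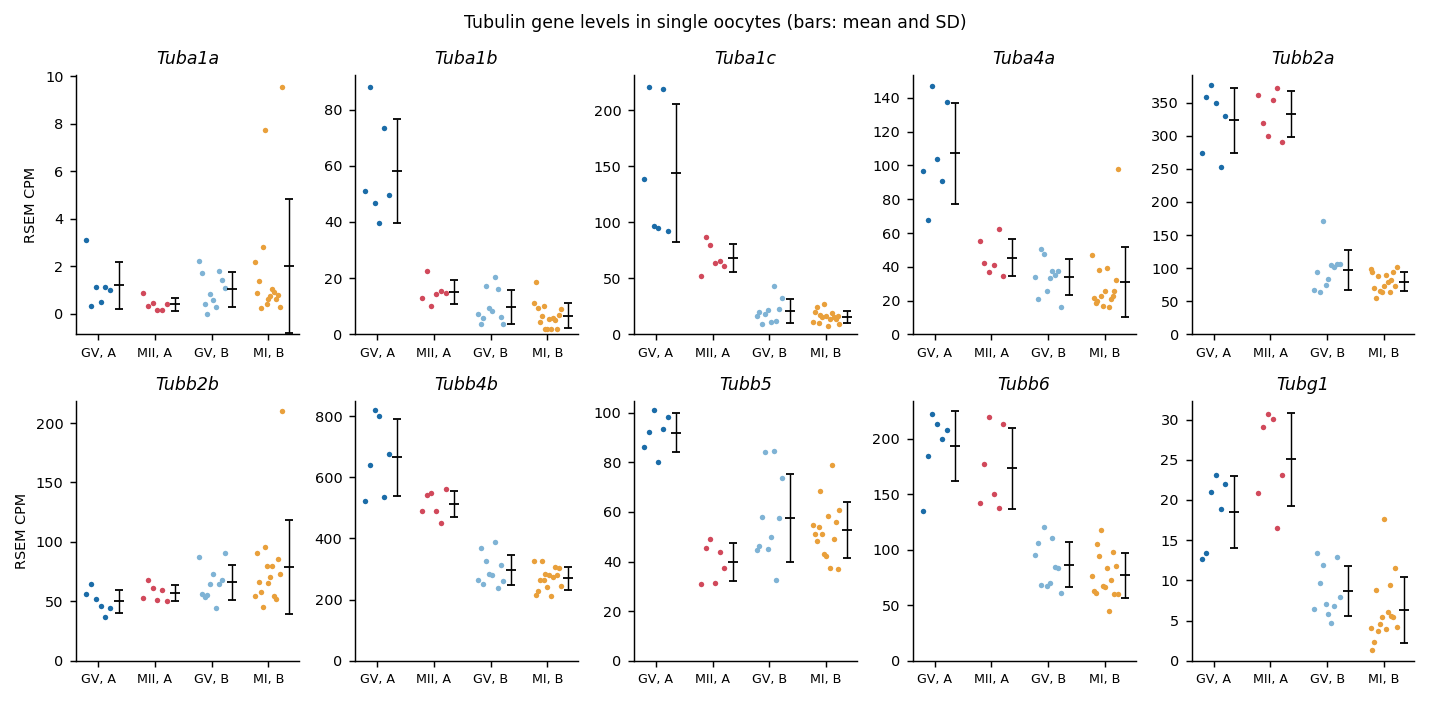
RSEM CPM (linear axes) of the 10 genes in each oocyte (points), by stage and batch, with the mean and SD of each group (bars). *Tuba1b*, *Tuba1c*, *Tuba4a* and *Tubb5* show 6 MII oocytes below all 6 GV oocytes of batch A, and no group of batch B stands apart from the other.

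HTSeq counts and RSEM expected counts treat copies differently, since RSEM divides reads among the genes they could come from, and the HTSeq setting for such reads is not stated. Among the alpha genes, 73.0% of the 100-base windows of *Tuba1b*, 65.8% of *Tuba1a* and 53.4% of *Tuba1c* occurred exactly, on either strand, in a transcript of another gene. With *Tuba1c*, 799 of the 1644 windows of *Tuba1b* and 594 of the 1704 of *Tuba1a* were shared. Part of the share is with *Gm49450*, a gene annotated on the same strand over *Tuba1a* and *Tuba1b*. The share was 36.9% for *Tubb2a*, 27.7% for *Tubb2b* and 30.6% for *Tubb4b*, which shared most of them with the pseudogene *Tubb4b-ps1*, and 0 windows for *Tubb5* and *Tubb6*. For *Tuba4a* it was 46.7% of the transcript *Tuba4a-202*. The other gene was *Stk16*, a kinase gene on the opposite strand that overlaps its 3′ side at chr1:75214228-75215606. *Tuba4a-202* had a mean share of 13.9% of the TPM of *Tuba4a* in GV and 23.6% in MII oocytes of batch A. *Tuba4a-201* (chr1:75214972-75218624) reaches less far into *Stk16*, and *Tuba4a-206* (chr1:75215612-75217434) does not overlap it. *Stk16* itself averaged 0.858 CPM in GV and 0.836 CPM in MII oocytes of batch A.

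The ratio of HTSeq to RSEM counts was divided by the median ratio of the same oocyte, so that 1 marks a typical gene. That median was close to 2 in all oocytes but MI oocytes 4, 8 and 9, where it was 1.13, 1.11 and 1.07. Over 8239 genes, 90% of the relative ratios lay between 0.635 and 1.27. *Tuba1b* had a relative ratio of 0.358 ± 0.0486 (SD, n = 6) in GV and 0.388 ± 0.0484 (SD, n = 6) in MII oocytes of batch A, and stood at percentile 2.48 of all genes over the 37 oocytes. *Tuba1c* stood at percentile 3.60, with 0.522 ± 0.0174 in GV and 0.540 ± 0.0150 in MII oocytes (SD, n = 6 for both). Both thus had fewer HTSeq than RSEM counts relative to other genes, and alike at both stages. *Tubb5*, with no shared window, had 1.04 ± 0.0165 in GV and 1.01 ± 0.0215 in MII oocytes (SD, n = 6 for both). In *Tuba4a* the ratio ran from 0.830 to 0.938 in GV and from 0.601 to 0.690 in MII oocytes, without overlap. In *Tubb2a* it was higher in MII oocytes, from 0.816 to 0.890 in GV and from 0.919 to 0.995 in MII oocytes. In *Tubb6* it was also higher, from 1.07 to 1.14 in GV and from 1.17 to 1.21 in MII oocytes.

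On HTSeq counts the same 4 genes were called between GV and MII oocytes, where 5.79% of all genes tested were called. The log2 fold change was -1.80 (SE 0.23) for *Tuba1b*, -1.04 (SE 0.23) for *Tuba1c* and -1.26 (SE 0.15) for *Tubb5*. For *Tuba4a* it was -1.67 (SE 0.20) against -1.28 by RSEM. Each of these 4 genes was lower in 6 of 6 MII oocytes than in any GV oocyte by HTSeq too. The share of all genes with such a separation was not computed.

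**Figure D3:**
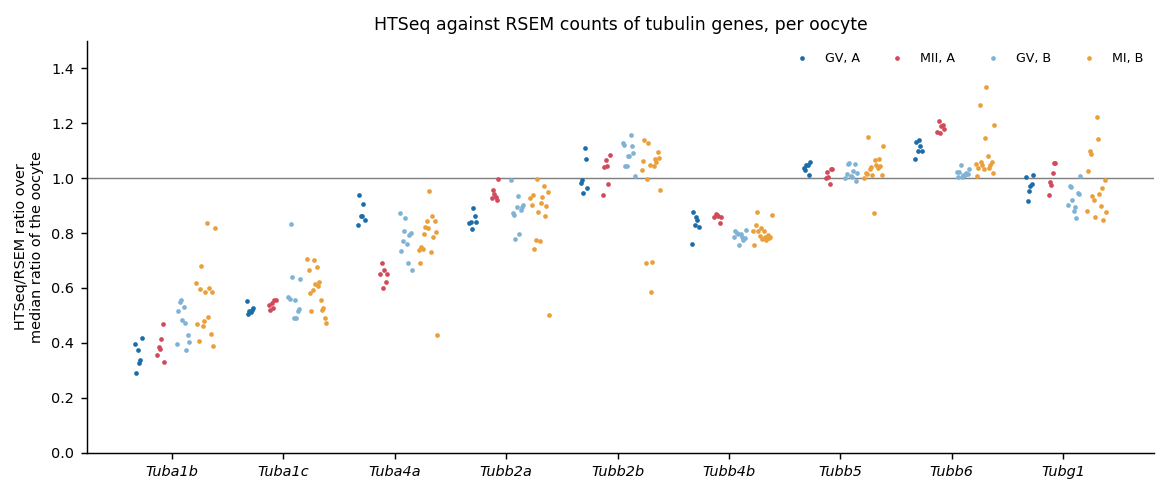
Ratio of HTSeq to RSEM counts of each gene, divided by the median ratio of the same oocyte (vertical axis, no unit), for each of the 37 oocytes (points) by stage and batch; the line marks 1 and *Tuba1a* is left out for its low counts. *Tuba1b* and *Tuba1c* lie below the line in each oocyte, and *Tuba4a* is lower in MII than in GV oocytes of batch A.

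Of the 8 transcripts of *Tuba4a*, 3 were tested in batch A and 1 was called. *Tuba4a-206* is an annotated coding transcript of 1205 bases and 2 exons that starts inside the gene, at chr1:75215612-75217434, and its first base is the first base of exon 2 of the full-length *Tuba4a-202*. Its expected count ran from 211 to 571 with a median of 308.5 in GV oocytes of batch A, and from 0 to 39 with a median of 17.5 in MII oocytes, where 2 of 6 had 0. The highest MII oocyte was far below the lowest GV oocyte. Its log2 fold change was -4.23 (SE 0.77, adjusted p = 0.0047). The adjusted p was 9.03e-05 without the filter and 0.0518 with the replicate block, under which the transcript was not called although its log2 fold change was -4.76. Its mean share of the TPM of *Tuba4a* was 36.7% in GV and 5.34% in MII oocytes. *Tuba4a-201* had a share of 47.4% in GV and 69.1% in MII oocytes, with a log2 fold change of -1.05 (SE 0.32, adjusted p = 0.059). Without the filter *Tuba4a-201* was called as well (-1.10, adjusted p = 0.0401). *Tuba4a-202* had a share of 13.9% and 23.6%, with a log2 fold change of -0.67 (SE 0.30, adjusted p = 0.187). In the edgeR test of transcript usage, *Tuba4a* was the member that changed (3 transcripts tested, adjusted p = 0.00499), and *Tuba4a-206* fell by 2.93 on the log2 scale relative to the gene. Of the 5477 genes tested for usage 2.39% passed. The only other member with more than 1 transcript to test was *Tubb2b* (adjusted p = 1.00). The transcripts are separated by RSEM from reads that they share, and HTSeq gives no value for them.

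Of the 25 transcripts of the 10 genes, 12 were tested in batch A and 4 were called, where 5.57% of all transcripts tested were called. Beside *Tuba4a-206* these were the full-length *Tuba1b-201* (-2.02, SE 0.24), *Tuba1c-201* (-1.16, SE 0.25) and *Tubb5-201* (-1.29, SE 0.13), whose genes were called as well. In batch B 13 transcripts were tested and 0 were called by edgeR, where 0% of all transcripts tested were called, and 1 had an unadjusted p under 0.05, *Tubb2a-201* (log2 fold change -0.29, adjusted p = 0.694). *Tuba4a-206* there had a median count of 66 in GV and of 33 in MI oocytes, with 1 oocyte at 0 in each group, and a log2 fold change of -0.89 (SE 0.64, adjusted p = 0.912).

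**Figure D4:**
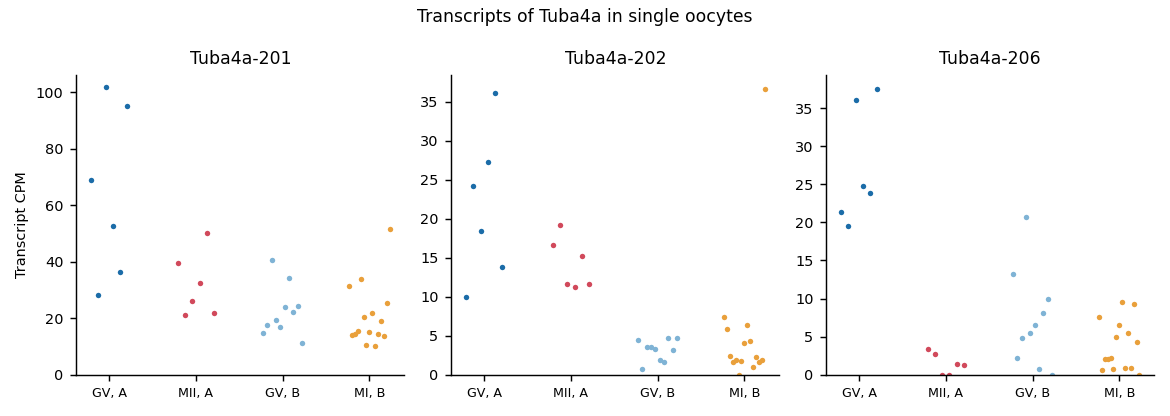
CPM of the 3 tested transcripts of *Tuba4a* in each oocyte (points), by stage and batch, on linear axes from 0. In batch A *Tuba4a-206* lies near 0 in the MII oocytes and above all of them in the GV oocytes.

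The comparison of GV with MI oocytes in batch B asks which messages differ by the first metaphase. All 10 genes were tested on RSEM counts and 0 were called, where 0.121% of the 12419 genes tested were called. None of the 10 had an unadjusted p under 0.05 in edgeR. DESeq2 called 0 of them, where it called 116 of the 12419 genes. On HTSeq counts 9 were tested and 0 called, where 0% of all genes tested were called. *Tubb4b* ranged from 236 to 387 CPM with a median of 282 CPM in GV oocytes, and from 210 to 327 CPM with a median of 274 CPM in MI oocytes. *Tubb5* ranged from 32.7 to 84.8 CPM with a median of 53.8 CPM in GV oocytes, and from 36.9 to 79.0 CPM with a median of 51.1 CPM in MI oocytes. Both genes overlapped over most of their range. The log2 fold change was -0.12 (SE 0.10, adjusted p = 0.731) for *Tubb4b* and -0.11 (SE 0.15, adjusted p = 0.856) for *Tubb5*. *Tuba1b*, at a median of 7.81 CPM in GV and 5.76 CPM in MI oocytes, had a log2 fold change of -0.54 (SE 0.36, adjusted p = 0.633). For *Tuba1b*, *Tuba1a* (0.87, SE 0.63) and *Tubg1* (-0.44, SE 0.31) the error left room for a 2-fold change. MI oocyte 15 was the highest for *Tuba4a* (97.9 CPM against a group median of 22.7 CPM) and for *Tubb2b* (210 CPM against 70.6 CPM). Without that oocyte 0 members were called, as with it.

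Whether the change to MII differs from the change to MI was tested in a model of all 37 oocytes, each change taken against GV oocytes of its own batch. *Tubb5* passed, with a difference of -1.08 in log2 fold change (SE 0.24, adjusted p = 0.00457, and between 0.00458 and 0.00811 over the 3 alternatives), where 5.46% of the 15083 genes tested passed. It was lower in 6 of 6 MII oocytes than in any GV oocyte of batch A, whereas its GV and MI oocytes overlapped. *Tuba4a* had a difference of -1.08 (SE 0.38, adjusted p = 0.093) on RSEM counts and of -1.43 (SE 0.34, adjusted p = 0.0133) on HTSeq counts, where 2.06% of all genes passed, and its adjusted p over the 3 alternatives lay between 0.0133 and 0.0248. For *Tuba1b* the difference was -1.39 (SE 0.53, adjusted p = 0.129, and between 0.0379 and 0.209 over the alternatives, passing without the filter) and for *Tuba1c* -0.71 (SE 0.36, adjusted p = 0.304), so their changes to MII were not shown to differ from those to MI.

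The 2 sets of GV oocytes stood apart in most tubulin messages. In a contrast chosen after seeing the data, 7 of the 10 genes were called as lower in GV oocytes of batch B than of batch A, from *Tuba1c* (-2.79, SE 0.26) to *Tubg1* (-1.09, SE 0.32), where 17.0% of all genes tested were called in either direction and 1204 of 15083 as lower. *Tubb2b* was at 0.40 (SE 0.22, adjusted p = 0.171). Batch and collection cannot be told apart here, so levels are not compared between MI and MII oocytes.

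Across the 37 oocytes, after the mean of each group was taken off, log2 CPM of *Tubb4b* and *Tubb6* had a Pearson r of 0.65, the highest of the 36 pairs among 9 of the members (*Tuba1a* was too low to be included). The lowest were -0.55 for *Tuba1c* with *Tuba4a* and -0.55 for *Tuba1b* with *Tubg1*, and *Tuba1b* and *Tuba1c* had an r of 0.09. Among 6601 genes the patterns most like that of *Tubb4b* were those of *Cenps* (r = 0.75), *H2afv* (r = 0.72) and *Kif17* (r = 0.70). For *Tuba1c* they were *Phykpl* (r = 0.63), *Ran* (r = 0.61) and *Rabgap1* (r = 0.61), and for *Tubg1* they were *Ercc3* (r = 0.59), *Epb41l5* (r = 0.55) and *Dcaf6* (r = 0.53). These values are descriptions, and the genes of an oocyte share its library and depth.

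Of the 10 other tubulin genes, 7 were tested between GV and MII oocytes. *Tubg2*, the second gamma tubulin gene, had 65.9 ± 10.7 CPM in GV and 107 ± 18.8 CPM in MII oocytes (SD, n = 6 for both). It rose by 0.65 on the log2 scale (SE 0.14, adjusted p = 0.00524). With spike-in totals its log2 fold change was -0.06 (adjusted p = 0.826), and *Tubg1* had 26.4 TPM against 95.5 TPM for *Tubg2* in GV oocytes. *Tuba3b* fell by 1.14 on the log2 scale (SE 0.37, adjusted p = 0.0393) and was the 1 gene of the list that was called. *Tuba3a* fell by 0.52 (SE 0.17, adjusted p = 0.0429) and *Tubd1*, which encodes delta tubulin, by 0.72 (SE 0.19, adjusted p = 0.0139). On HTSeq counts these 3 falls had an adjusted p of 0.0615, 0.13 and 0.0506. *Tubb3* (0.10, SE 0.24), *Tube1* (0.35, SE 0.23) and *Tubal3* (-0.04, SE 0.17) did not pass. *Tuba8*, *Tubb1* and *Tubb4a* were below the filter, and *Tubb1* had 0 counts in all groups.

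The lists of genes that serve tubulin were read against all genes tested between GV and MII oocytes. Of these, 20.6% passed the adjusted p in either direction, 6.32% were called as lower and 2.15% were called as higher. Of the 13 genes for tubulin folding cofactors and prefoldin, which fold tubulin and assemble the dimer, 12 were tested, 4 fell (3 of them called) and 0 rose, with a median log2 fold change of -0.48 against 0.01 over all genes. *Arl2*, a small GTPase that works with the cofactors, fell by 1.52 (SE 0.20, adjusted p = 8.78e-05), *Pfdn1* by 1.12 (SE 0.17) and *Pfdn6* by 1.25 (SE 0.23). Of the 16 genes of the gamma tubulin ring complex and augmin, all tested, 5 fell (2 of them called) and 1 rose, with a median of -0.17. *Tubgcp2*, a core subunit that binds gamma tubulin, fell by 1.13 (SE 0.22) and *Mzt2* by 1.12 (SE 0.24). *Nedd1*, which anchors the ring complex, rose by 0.51 (SE 0.12), although its log2 fold change was -0.21 with spike-in totals.

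*Ttc5*, whose protein recognises the opening residues of new tubulin in the feedback on tubulin messages, had 17.4 ± 2.83 CPM in GV and 10.9 ± 1.66 CPM in MII oocytes (SD, n = 6 for both). It fell by 0.72 on the log2 scale (SE 0.17, adjusted p = 0.00883). *Scaper*, the other gene of that list, did not pass. Of the 27 tubulin-modifying enzymes 20 were tested, 4 fell (2 of them called) and 2 rose, with a median of -0.34. *Ttll4*, a glutamylase, rose by 0.78 (SE 0.17), *Ttll11* fell by 0.64 (SE 0.15) and *Tpgs2*, of the polyglutamylase complex, by 0.79 (SE 0.20). Of the 16 genes of microtubule growth, sequestering and severing, 13 were tested, 4 rose (0 of them called) and 0 fell, with a median of 0.31. They included *Clasp2* (0.76, SE 0.14) and *Map4* (0.62, SE 0.15), which stabilise microtubules, and *Spast* (0.52, SE 0.13), which severs them. With spike-in totals 5596 of the 12929 genes passed, and in these 5 lists 0 passed as higher. As lower passed 10 of the folding genes, 9 of the ring complex and augmin, 2 of the autoregulation genes, 10 of the modifying enzymes and 5 of the growth and severing genes. On that scale *Clasp2* (0.06) and *Ttll4* (0.03) stayed above 0 while *Map4* (-0.12) and *Spast* (-0.22) did not. In batch B 0 genes of these 5 lists or of the other tubulin genes passed between GV and MI oocytes, where 0.145% of all genes passed. Between GV and MII oocytes 6 of the 12 oocyte markers fell (10 with spike-in totals) and 0 rose, with *Zp3* falling by 2.21 on the log2 scale (SE 0.22), *Npm2* by 1.24 (SE 0.13) and *Zp1* by 1.39 (SE 0.18). The granulosa or cumulus marker *Gja1* fell between GV and MI oocytes, by 3.42 on the log2 scale (SE 0.62, adjusted p = 0.0174 in edgeR). On HTSeq counts its adjusted p was 0.263, and with the replicate block 0 genes passed.

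*Fam166a*, a neighbour that overlaps the last bases of *Tubb4b* on the opposite strand at chr2:25222160-25222280, was chosen for that position and named after its values were seen. It had 0.534 ± 0.277 CPM in GV and 11.1 ± 1.79 CPM in MII oocytes of batch A (SD, n = 6 for both) by RSEM, a log2 fold change of 4.33 (SE 0.34). Its HTSeq to RSEM ratio was 0.014 in MII oocytes, and by HTSeq it was below the filter.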

How the data were processed

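RNA of 37 single mouse oocytes (6 GV and 6 MII oocytes in batch A, 10 GV and 15 MI oocytes in batch B) had been sequenced on a NovaSeq from Smart-seq2 cDNA with KAPA HyperPlus libraries. The authors ran Trim Galore 0.6.4 on the reads, aligned them to mm10 with STAR 2.7.6a and made raw read counts per gene with HTSeq 0.12.4, deposited without normalization. Expected counts of genes and of transcripts, which the authors obtained with RSEM 1.3.1, were likewise deposited without normalization. Strand, overlap and multiple-position settings of HTSeq are not stated. The 92 ERCC spike-ins were left out except where named.

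Expected counts were rounded to whole counts and fitted with the quasi-likelihood model of edgeR 4.0.16 (R 4.3.3), with TMM factors and filterByExpr, separately in batch A (GV and MII) and batch B (GV and MI). A gene was called at a Benjamini-Hochberg adjusted p under 0.05 over all genes tested together with a change of over 2-fold, the rule of the study, and passed at the adjusted p alone. Fold changes carry a standard error from the fit. The difference between the 2 changes was a contrast in a model of the 4 groups. Transcripts were fitted alike, and their usage was tested with diffSpliceDGE, with the Simes method over the transcripts of a gene. Alternatives were HTSeq counts, no filter beyond 1 count, DESeq2 size factors in edgeR, DESeq2 1.42.0, the replicate number as a block, all oocytes with batch as a covariate, spike-in totals as library size, leaving out each oocyte, and leaving out MI oocytes 4, 8 and 9, or 15. HTSeq counts with spike-in totals and the contrast between the GV groups were chosen after seeing the data. The code was tested on simulated data, where the transcript and usage tests missed a large part of the planted changes, so that transcripts not called may still have changed. A minimum for the part found had been set for that test and was replaced by a lower one after its outcome was seen.

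CPM used TMM factors over all 37 oocytes. TPM were computed from transcript expected counts and GENCODE M21 lengths (138789 of the 138835 transcripts), with Python 3.11.15 and pandas 2.3.3. The counter ratio used genes whose HTSeq count averaged 100 or more. A shared window is a run of 100 bases found exactly, as it is or as its reverse complement, in a transcript of another gene. Identity was computed with Biopython 1.88 and figures drawn with matplotlib 3.10.9. Correlations used log2 CPM (prior count 2) of genes with a mean of at least 10 CPM, less the group mean. The median library held 11531959 expected counts; counting error weighs most on *Tuba1a* and, in batch B, on *Tuba1b* and *Tubg1*, which had the fewest counts.

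All 10 members and all other tubulin genes are named. Of each other list (folding cofactors and prefoldin, ring complex and augmin, autoregulation of tubulin messages, modifying enzymes, growth with sequestering and severing, and the markers of oocytes, granulosa or cumulus, and blood or immune cells) up to 3 genes with the smallest adjusted p among those past it are named, and any past it between GV and MI. The members and lists were chosen with earlier results of these data known; MI oocytes 4, 8, 9 and 15 were picked for leaving out from those results too. Comparisons, tests and the other alternatives were fixed before the data were examined here. Replicate numbers did not pair oocytes between stages, so the block is an alternative alone. Levels of MI and MII oocytes were not compared, since stage and batch overlap.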

Additional observations from a re-analysis of the deposited data

Results flagged for a closer look

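In 30 tests of CPM, over the groups of 10 or fewer oocytes, 2 had 1 oocyte far from the others, and chance gives about 1 in 20. *Tuba1a* was at 3.10 CPM in GV oocyte 1 of batch A and at 1.14 CPM or less in the others, a gap of 0.705 of the range of the group. *Tubb2a* was at 172 CPM in GV oocyte 4 of batch B and at 107 CPM or less in the others, a gap of 0.605 of the range. *Tubb5* differed between the groups in how it changed: its change from GV to MII minus its change from GV to MI was -1.08 on the log2 scale, by the test of that difference.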

How the results depend on the processing

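Between GV and MII oocytes *Tuba1b*, *Tuba1c*, *Tuba4a* and *Tubb5* were called as lower in 8 of 8 alternatives. Their log2 fold changes ran from -2.75 to -1.80, from -1.93 to -1.04, from -2.42 to -1.24 and from -2.05 to -1.21. Leaving out 1 oocyte gave 3 to 4 called members. *Tuba1a* passed the filter in 7 of these 12 fits. It was called in 1 of them, without GV oocyte 2 (-1.83, adjusted p = 0.0363), where *Tuba1c* was not. In the other 6 *Tuba1a* did not pass, with an adjusted p of up to 0.122.

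Between GV and MI oocytes 0 members were called in edgeR or DESeq2 under any alternative run, where at most 1 had an unadjusted p under 0.05, and 0 in the 25 fits that left out 1 oocyte. Of all genes, these alternatives called from 0 to 116, the most in DESeq2 (116 of 12419).

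The members whose change to MII differed from the change to MI numbered 2 with HTSeq counts, 2 with HTSeq counts without MI oocytes 4, 8 and 9, and 3 without the filter, against 1. *Tuba4a* was the second in all 3 and *Tuba1b* the third without the filter. Of all genes, 319 of 15461 passed with HTSeq counts and 380 of 15411 with HTSeq counts without those 3 oocytes. Without the filter 1600 of 39293 passed, against 823 of 15083 with it. The cause was not tested.

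With the replicate block 3 transcripts of members were called between GV and MII oocytes (*Tuba4a-206* had an adjusted p of 0.0518), and without the filter 5. The share of all transcripts called was 5.57% in the main fit and was not computed for these settings, so these counts have no background to be read against. The transcript gained without the filter was *Tuba4a-201* (-1.10, adjusted p = 0.0401). Single member values were compared 558 times with an alternative or a fit without 1 oocyte, by whether the member was called or, for the difference of the changes, passed. These leave out *Tuba1a* between GV and MII oocytes, which was below the filter, and so its call without GV oocyte 2. In 550 this was as before, in 6 it was gained, in 2 it was lost (*Tuba1c* without GV oocyte 2 or 5), and 0 called values changed sign. Members that were not called did change sign, *Tubb2b* and *Tubg1* among them with spike-in totals, and *Tubb4b* crossed the adjusted p alone.

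Low depth limits *Tuba1a*, whose counts were at most 59, and *Tubg1*, *Tuba1b* and *Tuba1c* in MI oocyte 15, at 7, 15 and 15 counts.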
